A study of Mus musculus with 18 samples.

Results

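The arrays described here are 9 of 18 Illumina MouseWG-6 bead arrays of mouse skeletal myoblasts, the muscle-high arrays, set against the other 9, the dividing arrays. They were chosen by the level of Ckm, the muscle creatine kinase, on each array after background correction and normalisation. Arrays with a log2 intensity above 10 were taken as muscle-high and arrays below 8.5 as dividing, and no array lay between these limits. The lowest value inside the muscle-high class was 10.87 (KO day 3 replicate 3), and the highest in the dividing class was 8.05 (KO day 0 replicate 2). Because Ckm on these arrays made the classes, and all genes come from the same arrays, every difference between the classes below is a description and has no test.

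All cells came from mice of the strain Gata4tm1.1Sad/J, whose Gata4 gene carries loxP sites, so the Wt cells carry the same allele as the others. Myoblasts labelled KO had received an adenovirus with Cre recombinase, those labelled OE a retrovirus with GATA4, and those labelled Wt an adenovirus with nuclear beta-galactosidase, so the kind of virus differs between OE and Wt as well as its cargo. Day 3 cultures had spent 3 days in differentiation medium, and day 0 cultures were kept in growth medium. Each of the 6 labelled groups has 3 arrays, and nothing in the labels states that replicates are separate cultures or animals. The p-values therefore cover only the spread between these arrays, which may be technical.

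Myoblasts are muscle precursors that divide in rich medium. When growth factors are withdrawn they leave the cell cycle and fuse into multinucleated myotubes, which build sarcomeres, the contractile units of actin and myosin filaments, together with the calcium stores and the energy enzymes that contraction needs. The regulators MyoD and myogenin drive this program, and in differentiated muscle the cell cycle genes are silenced.

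The titles did not follow the classes. The muscle-high arrays were the 3 of KO day 3, replicate 1 of OE day 3, replicates 1 and 3 of Wt day 3, replicate 1 of KO day 0, replicate 2 of OE day 0 and replicate 1 of Wt day 0. Of the arrays labelled day 3, 6 of 9 were muscle-high, against 3 of 9 labelled day 0 (Fisher's exact test, two-sided, p = 0.347). By infection, 4 of 6 KO, 2 of 6 OE and 3 of 6 Wt arrays were muscle-high (Fisher's exact test, p = 0.835). Ckm averaged 9.9 ± 1.91 on day 3 arrays and 8.71 ± 1.9 on day 0 arrays (SD, n = 9 each), a difference of 1.19, given with no test because Ckm made the classes. Neither test of the labels passed 0.05 at this number of arrays. The 6 arrays whose class went against their day label are named as labelled throughout. Each array detected 16974 to 19966 of its 45281 probes, at a median of 96.6 to 110.4 intensity units. Gata4 was detected on 2 muscle-high and 3 dividing arrays and averaged 4.56 ± 0.33 on the muscle-high and 4.65 ± 0.34 on the dividing arrays (SD, n = 9 each), near background, so it does not check the infection labels.

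**Figure D1:**
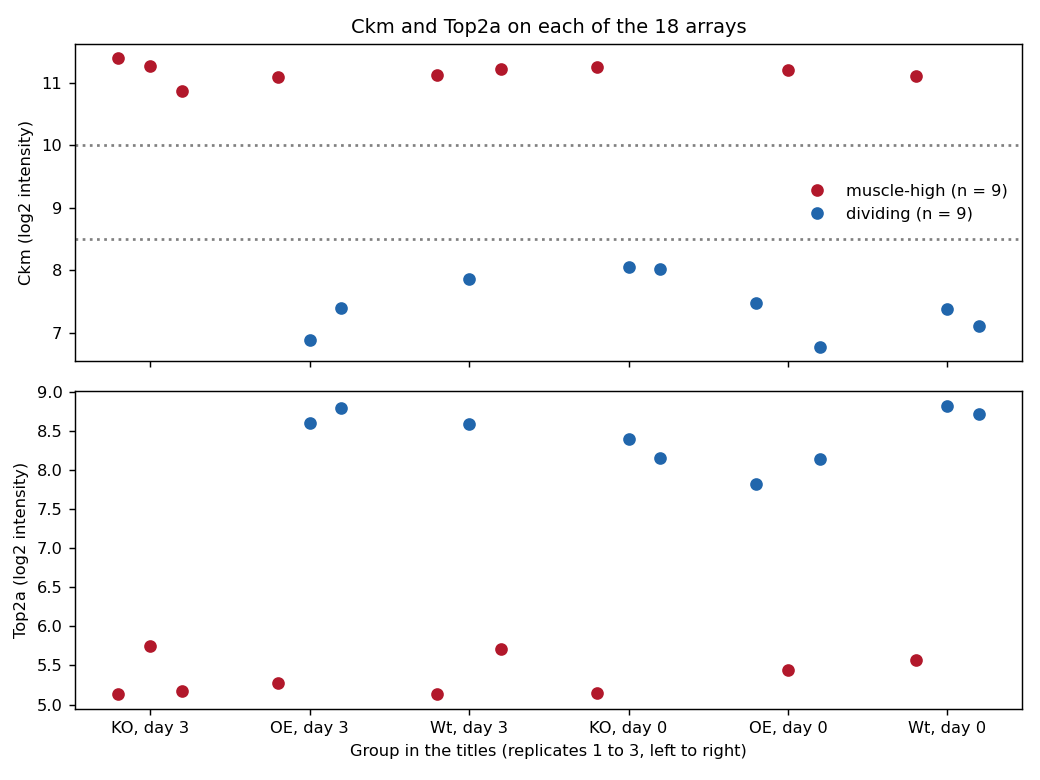
Log2 intensity of Ckm (top) and Top2a (bottom) on each of the 18 arrays, by the group in the titles, with 1 point per array. Dotted lines mark the Ckm limits of 8.5 and 10, and every group except KO day 3 holds both muscle-high (red) and dividing (blue) arrays.

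Ckm itself had a lowest, median and highest value of 10.87, 11.21 and 11.39 on the muscle-high arrays, against 6.78, 7.4 and 8.05 on the dividing arrays. Top2a, the DNA topoisomerase that untangles chromosomes in dividing cells, was at 5.13, 5.27 and 5.75 on the muscle-high arrays and at 7.82, 8.59 and 8.82 on the dividing arrays, with mean differences of -3.08 and -1.52 on its 2 probes. A split by Top2a in place of Ckm put every one of the 18 arrays in the same class. Over 11921 genes, the correlation of an array with its own class was 0.966 to 0.995 among muscle-high and 0.96 to 0.995 among dividing arrays, and 0.919 to 0.942 between classes. These are correlations across genes, which are not independent replicates. For 18 of 18 arrays the closest array was of the same class, for 10 it had the same day label, for 10 the same infection label and for 7 the same labelled group. The first principal component, with 57.6% of the variance, placed the 9 muscle-high arrays on one side and the 9 dividing arrays on the other.

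Both classes carried the identity of skeletal muscle cells. Myod1, the regulator that commits cells to muscle, lay between 10.19 and 11.07 on the muscle-high arrays and between 10.1 and 11.15 on the dividing arrays, ranges that overlap almost fully. Myog, the myogenin gene that opens differentiation, was detected on all 18 arrays, with 11 to 11.58 on the muscle-high arrays and 9.63 to 10.39 on the dividing arrays. Des, the intermediate filament protein desmin, averaged 13.95 ± 0.06 on the muscle-high and 12.46 ± 0.05 on the dividing arrays, and Cdh15, M-cadherin, averaged 11.1 ± 0.2 on the muscle-high and 10.29 ± 0.23 on the dividing arrays (SD, n = 9 each). Chrna1, a subunit of the acetylcholine receptor, was also detected on all 18 arrays, with 13.84 ± 0.17 on the muscle-high and 13.27 ± 0.22 on the dividing arrays, and its classes overlapped.

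Of 11921 genes, 1216 (10.2%) were higher on every muscle-high array than on any dividing array, and 1186 (9.95%) were lower on every one. These counts are called higher on all 9 and lower on all 9 below. The 1216 include Ckm, which made the classes. The mean difference, muscle-high minus dividing, was at least 1 on the log2 scale for 711 of the higher and 662 of the lower genes, at least 2 for 176 and 144, and at least 3 for 19 and 24. The median difference over all genes was -0.02. Most of these genes were expressed in both classes: 995 of the 1216 higher genes were detected on all 9 dividing arrays, and 1025 of the 1186 lower genes on all 9 muscle-high arrays. Only 15 genes were detected on all 9 muscle-high arrays and on none of the dividing arrays, and 10 the other way round. Averaged over the 1216 higher genes, the array level was 8.72 to 8.87 on the muscle-high and 7.47 to 7.59 on the dividing arrays. Over the 1186 lower genes it was 7.58 to 7.63 on the muscle-high and 8.77 to 8.9 on the dividing arrays. Among the 12 arrays whose class follows the day label, a set chosen after the data were seen, 1611 genes were higher and 1558 lower, which include all of the 1216 and the 1186, as a smaller set of arrays must. In bulk RNA, fewer differentiated cells and less muscle RNA per cell cannot be told apart.

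Pvalb, the calcium buffer parvalbumin of fast muscle, had the largest difference of any gene. It was at 9.61, 10.45 and 11.25 (lowest, median and highest) on the muscle-high arrays and at 5.28, 6.12 and 6.83 on the dividing arrays, a mean difference of 4.44, or 21.8-fold. After it came 2310002L09Rik with 3.78, detected on only 2 dividing arrays, and Ckm with 3.73, or 13.2-fold. Ckmt2, the mitochondrial creatine kinase of muscle, differed by 3.56. Gja5, the gap junction protein connexin 40, and Myadml2 each differed by 3.55. Ampd1, the muscle AMP deaminase, and Myoz1, a Z-disc protein, each differed by 3.49. Ky, a muscle protein whose loss in mice bends the spine, differed by 3.43. Myh4, the heavy chain of the fastest myosin, was detected on 9 muscle-high and 0 dividing arrays, with means of 7.82 ± 0.78 on the muscle-high and 4.43 ± 0.15 on the dividing arrays (SD, n = 9 each). It was at least 8.65-fold higher on the muscle-high arrays, set against the lowest signal that counts as detected. Lrtm1, a leucine-rich membrane protein, and Tgm2, a transglutaminase, closed the 12 largest with 3.29 and 3.27. The offset of 16 in the background correction pulls log2 differences of dim probes toward 0, so the folds of genes near background are too small.

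Most sarcomere genes were higher on the muscle-high arrays. In the thick filament list, 10 of 14 measured genes were higher on all 9, 0 were lower, and the median difference was 1.66 against -0.02 over all genes. Myh1, a fast myosin heavy chain, averaged 11.61 ± 0.3 and 9.12 ± 0.6, and Mybpc1, a myosin-binding protein, 10.27 ± 0.43 and 7.38 ± 0.35 on the muscle-high and the dividing arrays, though the 4 probes of Mybpc1 differed by between 0.12 and 2.89. Myom1, the M-line protein myomesin, differed by 2.2. Myl1, a myosin light chain, had a mean difference of -0.17 with classes that overlapped. In the thin filament list, 10 of 13 genes were higher, with a median of 1.8. Acta1, the skeletal actin, averaged 14.43 ± 0.15 on the muscle-high and 13.91 ± 0.28 on the dividing arrays, with classes that overlapped. Tnni2, the fast troponin I that blocks the filament until calcium arrives, averaged 13.02 ± 0.16 on the muscle-high and 10.68 ± 0.34 on the dividing arrays. Tnnc2, the fast troponin C, averaged 14.67 ± 0.07 on the muscle-high and 12.65 ± 0.36 on the dividing arrays. Tmod1 and Tmod4, which cap the pointed end of actin filaments, differed by 2.76 and 2.88. Tpm1, an alpha-tropomyosin, ran against its list: it was lower on all 9, with 11.19 ± 0.3 on the muscle-high and 11.91 ± 0.23 on the dividing arrays (SD, n = 9 each), on both of its probes.

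In the list of titin, Z-disc and costamere genes, which anchor the filaments, 19 of 21 were higher on all 9 with a median of 1.63. Besides Myoz1, the largest were Ldb3, a Z-disc adaptor, with 2.68, Tcap, the titin cap, with 2.56, and Myoz2 with 2.43. The probes of Ldb3 and Myoz2 disagreed in size, with lowest differences of 0.27 for each.

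All 19 measured genes of calcium handling and excitation were higher on all 9, with a median of 1.69 and a smallest difference of 0.64. Hrc, a calcium-binding protein of the sarcoplasmic reticulum, was at 12.04, 12.29 and 12.46 on the muscle-high arrays and at 9.19, 9.61 and 10.14 on the dividing arrays. Casq1, the calsequestrin that stores calcium in fast fibres, averaged 8.33 ± 0.76 on the muscle-high and 5.78 ± 0.37 on the dividing arrays. Cacng1, a subunit of the muscle calcium channel, averaged 11.08 ± 0.27 on the muscle-high and 8.98 ± 0.13 on the dividing arrays (SD, n = 9 each). In the energy list, 19 of 21 were higher, with a median of 1.86. The 19 include Ckm, whose place was fixed because it made the classes. Art1, an ADP-ribosyltransferase of the muscle surface, differed by 2.62. Of the 25 oxidative phosphorylation genes 9 (36%) were higher on all 9 and 0 lower, against 10.2% and 9.95% of all genes. The median was 0.37. Cox7a1, the muscle form of a cytochrome oxidase subunit, stood out there with 1.95, and the next 3 by size, Ndufb5, Atp5a1 and Cox7b, differed by 0.63, 0.59 and 0.58 with classes that overlapped. Of 18 glycolysis and hypoxia genes, 4 (22.2%) were higher, against 10.2% of all genes, led by Ankrd37, a hypoxia-induced gene, with 2.27.

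**Figure D2:**
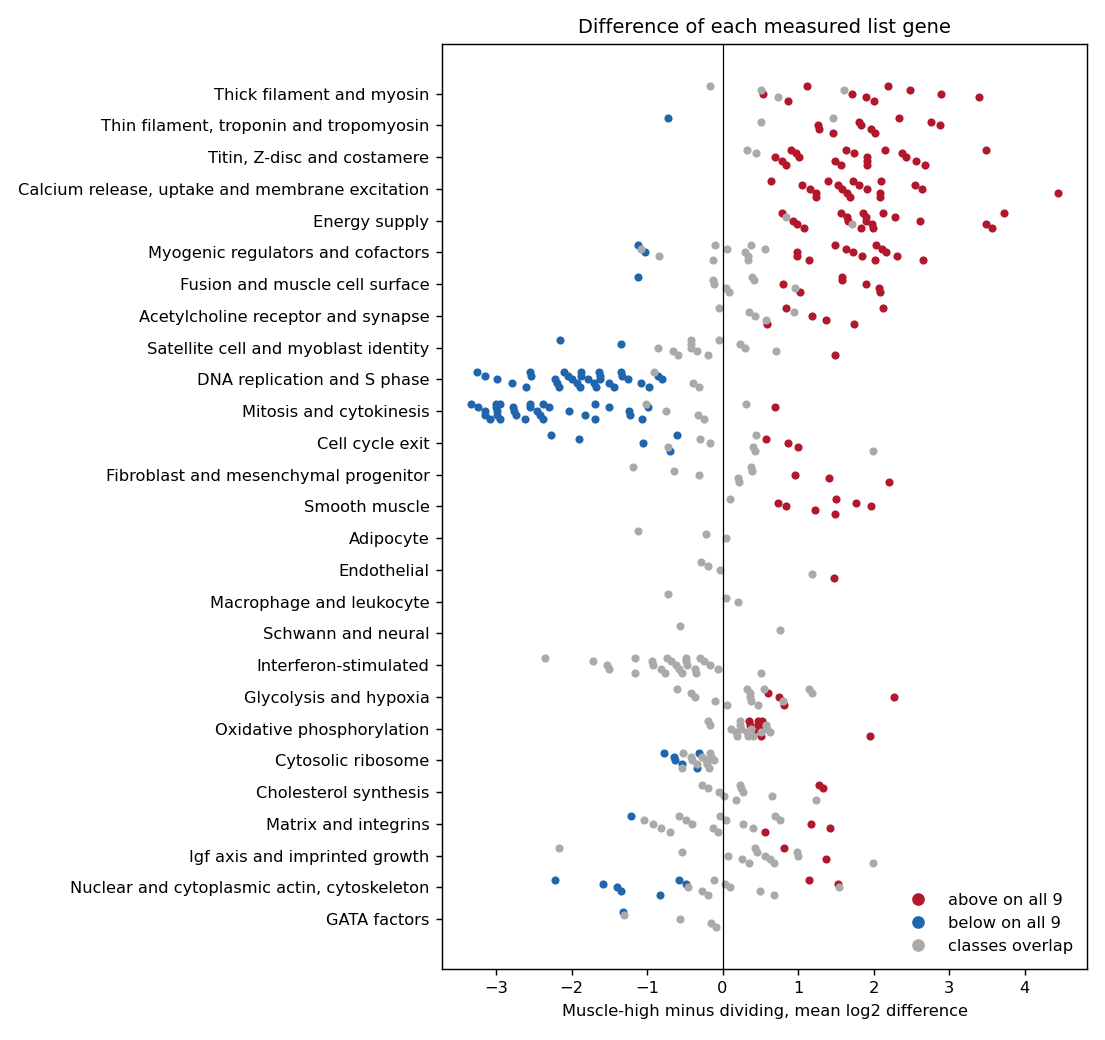
Mean log2 difference, muscle-high minus dividing, of each measured gene in 27 lists, with 1 point per gene. Red points are higher on all 9, blue points lower on all 9, and grey points have classes that overlap, as all 25 interferon-stimulated genes do.

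Among 25 myogenic regulators and cofactors, 13 (52%) were higher on all 9 and 2 (8%) lower, against 10.2% and 9.95% of all genes. Myf6, or MRF4, the regulator of late differentiation, was at 9.73, 10.6 and 10.8 on the muscle-high arrays and at 7.15, 7.85 and 8.29 on the dividing arrays. Hspb3, a small heat shock protein of muscle, differed by 2.31, Klhl31 by 2.16, and Mef2c, a transcription factor that works with the MyoD family, by 2.11. The 2 that were lower were Id3, an inhibitor that keeps MyoD family proteins from DNA, by -1.12, and Eya1, a cofactor of homeobox proteins, by -1.03 on its brightest of 3 probes, of which the highest differed by 0.19. In the fusion list, 7 of 15 (46.7%) were higher and 1 (6.7%) lower, against the same shares of all genes. Mymk, the fusogen myomaker, averaged 11.09 ± 0.1 on the muscle-high and 9.01 ± 0.31 on the dividing arrays (SD, n = 9 each). Itgb1bp2, or melusin, Cav3, the muscle caveolin, and Tspan33, a tetraspanin, differed by 2.07, 1.9 and 1.58. Dock1, a Rac activator used in fusion, was lower by -1.12, and its 3 probes differed by between -1.12 and -0.15. Of 11 acetylcholine receptor and synapse genes, 6 were higher and 0 lower. Ache, acetylcholinesterase, differed by 2.13, Musk, the synapse kinase, by 1.74, and the receptor subunits Chrnd and Chrng by 1.37 and 1.18.

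Of 15 satellite cell and myoblast genes, 2 were lower on all 9, 1 was higher, and the classes overlapped in 12. These shares of 13.3% and 6.7% lie near the 9.95% and 10.2% of all genes. Vcam1, an adhesion molecule, averaged 8.45 ± 0.67 on the muscle-high and 10.6 ± 0.25 on the dividing arrays, and Sdc3, a syndecan, 9.14 ± 0.26 on the muscle-high and 10.49 ± 0.15 on the dividing arrays (SD, n = 9 each). The 2 probes of Vcam1 differed by -2.16 and -0.39. Met, the receptor for hepatocyte growth factor, was detected on 1 muscle-high and 8 dividing arrays, with classes that overlapped. The 1 that was higher was Des.

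Cell division genes were lower on the muscle-high arrays with few exceptions. Of 35 DNA replication genes, 32 were lower on all 9 and 0 higher, with a median difference of -1.79. Mcm10, an initiation factor, was at 5.66, 6 and 6.82 on the muscle-high arrays and at 8.73, 9.46 and 10.09 on the dividing arrays, a difference of -3.25, though its 3 probes differed by between -3.25 and -0.31. Tk1, thymidine kinase, Uhrf1, which passes DNA methylation on at replication, and Cdt1, a licensing factor, differed by -3.15, -2.99 and -2.79. Of 37 mitosis and cytokinesis genes, 31 were lower, with a median of -2.42. Anln, the cytokinesis scaffold anillin, was at 6.92, 7.46 and 7.82 on the muscle-high arrays and at 10.22, 10.7 and 11.15 on the dividing arrays. The 2 probes of Anln differed by -3.33 and -0.87. Bub1b, a kinase of the spindle checkpoint, averaged 5.88 ± 0.35 on the muscle-high and 9.13 ± 0.24 on the dividing arrays (SD, n = 9 each). Birc5, survivin, differed by -3.15 and Cdc20, an activator of the anaphase-promoting complex, by -3.14. Pbk, a mitotic kinase outside the list, differed by -3.21.

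Kif23, a kinesin of the spindle midzone, was the only mitosis gene higher on all 9, by 0.7 on its brightest probe. Its 4 probes differed by between -3.25 and 0.7, and their mean was lower by -1.51, so its direction depends on the probe. Of the 37 mitosis genes, 5 had classes that overlapped, and 2, Kif23 among them, had a higher mean on the muscle-high arrays.

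Of 15 cell cycle exit genes, 3 (20%) were higher and 5 (33.3%) lower on all 9, against 10.2% and 9.95% of all genes. Those that were higher were Cdkn1a, the inhibitor p21, with 13.12 ± 0.15 and 12.12 ± 0.32, Rb1, the retinoblastoma protein, with 9.99 ± 0.17 and 9.12 ± 0.26, and Ccnd3, cyclin D3, with 12.67 ± 0.2 and 12.1 ± 0.12 on the muscle-high and the dividing arrays (SD, n = 9 each). Ccnd1, cyclin D1, which drives entry into the cycle, was at 10.81, 11.44 and 11.62 on the muscle-high arrays and at 13.46, 13.56 and 13.71 on the dividing arrays, a difference of -2.27 that recurred on all 3 of its probes. Rbl1, the pocket protein p107, and Cdk4, the partner of D-type cyclins, differed by -1.9 and -1.06, and the probes of Rbl1 differed by between -1.9 and -0.01. The other 2 that were lower were Cdkn2c, the inhibitor p18, by -0.7, and Btg1, an antiproliferative gene, by -0.6, which were named after their values were seen. Cdkn1c, the inhibitor p57, had a mean difference of 2, but its classes overlapped, with 10.67 to 13.48 on the muscle-high and 9.47 to 11.2 on the dividing arrays.

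Histone genes ran in both directions. Of the 12 genes lowest on the muscle-high arrays, 5 were H2A genes: H2ac12 and H2ac15, each with -3.61, H2ac11 with -3.46, H2ac22 with -3.41 and H2ac7 with -3.15. A count over all 52 measured replication-dependent histone symbols, made after these values were seen, found 9 lower on all 9, 7 higher and a median of 0.27. Over all genes the shares were 9.95% lower and 10.2% higher, and no more is read from the total. All 9 that were lower were among the 16 H2ac symbols, of which 2 were higher. Of 12 H2bc symbols 4 were higher and 0 lower. Histone genes of a class are near-identical in sequence and their probes may share signal, so single members are uncertain. Besides these, Anln, Bub1b, Mcm10 and Pbk, the 12 lowest held 3 genes of other roles. Arap3 differed by -3.17, and Gal, the neuropeptide galanin, by -3.21 with 8.45 to 9.58 on the muscle-high and 11.08 to 13.74 on the dividing arrays. Ccl5, a chemokine, differed by -3.43, but its spread on the dividing arrays was wide, with 4.8 ± 0.27 on the muscle-high and 8.23 ± 2.1 on the dividing arrays (SD, n = 9 each), and its highest muscle-high value of 5.18 lay just under the lowest dividing value of 5.36.

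By the named-gene rule, the genes whose levels over the 18 arrays ran closest to Ckm were Hrc, Tnni2, Itgb1bp2, Actc1, the cardiac actin of young muscle, Cox8b, a cytochrome oxidase subunit, and Nrap, which helps sarcomeres assemble. Those that ran most against it were Sgo2a and Kif2c, which act at centromeres, Oip5, Cenpv, Dusp5, a phosphatase of ERK kinases, and Selenoh, a selenoprotein. As the arrays form 2 separate clusters, no correlation is given. Actc1 averaged 14.36 ± 0.08 and 12.9 ± 0.2, and Dusp5 averaged 6.34 ± 0.24 and 8.79 ± 0.28 on the muscle-high and the dividing arrays (SD, n = 9 each).

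Promoters of the markers and of genes from both ends of the ranking are shown because the 2 sets of genes move together across the arrays. The 6 were picked after the class values and their matches were seen, and they are not typical of their sets, as the counts below show. Each sequence runs from 250 bases before the start to 50 bases after it, on the strand of the gene, from RefSeq on mouse GRCm38.p6. Capitals mark matches, on either strand, to 5 motifs. CAGCTG is an E-box of the kind that MyoD binds. The TATA box was searched as TATAAA. Another was CCAAT, which many promoters hold. The cell cycle element called CHR was searched as TTTGAA. The core of the E2F element was searched as TTCCCGC. These motifs were chosen after the class values were seen, and a match is no proof of binding. Ckm lies at chr7:19410844-19411143 on the + strand, Ckmt2 at chr13:91876836-91877135 on the - strand and Myh4 at chr11:67237562-67237861 on the + strand. Top2a lies at chr11:99024140-99024439 on the - strand, Bub1b at chr2:118597961-118598260 on the + strand and Mcm10 at chr2:5012742-5013041 on the - strand.
Ckm: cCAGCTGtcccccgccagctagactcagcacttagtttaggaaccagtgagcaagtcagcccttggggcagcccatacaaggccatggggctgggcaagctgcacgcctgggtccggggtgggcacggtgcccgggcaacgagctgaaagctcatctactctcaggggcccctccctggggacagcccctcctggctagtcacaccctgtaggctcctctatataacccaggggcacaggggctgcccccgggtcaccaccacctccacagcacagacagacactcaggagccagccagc
Ckmt2: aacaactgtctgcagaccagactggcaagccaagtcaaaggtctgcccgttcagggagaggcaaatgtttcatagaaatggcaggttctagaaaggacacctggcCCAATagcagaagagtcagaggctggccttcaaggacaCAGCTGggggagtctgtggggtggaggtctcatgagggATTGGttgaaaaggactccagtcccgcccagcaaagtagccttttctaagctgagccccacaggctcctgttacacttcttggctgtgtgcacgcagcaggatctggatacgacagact
Myh4: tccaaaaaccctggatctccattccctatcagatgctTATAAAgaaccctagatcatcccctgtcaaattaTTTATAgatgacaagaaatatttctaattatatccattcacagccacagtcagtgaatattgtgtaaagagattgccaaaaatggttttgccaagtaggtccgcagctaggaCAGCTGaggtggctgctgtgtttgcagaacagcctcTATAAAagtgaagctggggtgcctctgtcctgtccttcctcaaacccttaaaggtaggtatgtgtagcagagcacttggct
Top2a: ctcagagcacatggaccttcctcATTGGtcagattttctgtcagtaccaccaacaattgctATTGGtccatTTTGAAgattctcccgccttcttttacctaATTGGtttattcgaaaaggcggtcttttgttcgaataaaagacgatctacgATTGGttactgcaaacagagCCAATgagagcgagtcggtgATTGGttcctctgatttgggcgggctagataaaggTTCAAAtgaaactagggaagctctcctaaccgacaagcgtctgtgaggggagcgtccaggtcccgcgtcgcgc
Bub1b: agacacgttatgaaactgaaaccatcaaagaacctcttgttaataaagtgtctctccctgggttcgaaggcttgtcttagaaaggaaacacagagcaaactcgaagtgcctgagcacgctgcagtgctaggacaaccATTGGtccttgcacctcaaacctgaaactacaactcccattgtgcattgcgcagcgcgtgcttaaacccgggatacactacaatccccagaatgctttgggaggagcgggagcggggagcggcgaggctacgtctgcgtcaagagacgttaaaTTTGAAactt
Mcm10: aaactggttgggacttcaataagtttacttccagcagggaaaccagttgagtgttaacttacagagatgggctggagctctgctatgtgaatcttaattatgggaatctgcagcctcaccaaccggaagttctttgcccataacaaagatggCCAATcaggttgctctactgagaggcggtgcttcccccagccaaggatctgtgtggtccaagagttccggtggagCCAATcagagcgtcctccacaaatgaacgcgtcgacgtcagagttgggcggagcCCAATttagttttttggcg

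In these windows Ckm held 1 match, a CAGCTG whose first base was at position -249 from the start. Ckmt2 had a CAGCTG at -107 and Myh4 one at -67, with a TATAAA at -31. Top2a held 8 matches, of which 6 were CCAAT on one strand or the other, between -227 and -58, and 2 were TTTGAA, at -179 and -23. Bub1b had a CCAAT at -113 and a TTTGAA at 41, and Mcm10 had CCAAT at -98, -23 and 32. The counts by single gene left out promoters on 1 chromosome, so a gene without a promoter there may still have one in the table. Of the 12 genes with the largest higher differences, 9 had a promoter in these counts, and 4 of these held CAGCTG: Ckm, Ckmt2, Myh4 and Lrtm1. Pvalb, the gene with the largest difference, held none of the 5 motifs in either of its 2 promoters, nor did Gja5. Of the 12 lowest genes, 9 had a promoter in these counts, of which 7 held CCAAT, 6 TTTGAA and 0 TTCCCGC, and Gal held none of the 5 motifs. CAGCTG was found in 22.1% of the 1329 promoters of genes higher on all 9, in 13.1% of the 1208 promoters of genes lower on all 9, and in 16% of the 12328 promoters of all genes measured. TTCCCGC was found in 5.3%, 14.9% and 7.6% of these sets, TTTGAA in 10.7%, 17.1% and 12.3%, CCAAT in 35.7%, 42.1% and 37.4%, and TATAAA in 8.7%, 7.9% and 8.3%. Of all 32851 promoters in the table, 16.3% held CAGCTG, 4.6% TTCCCGC, 17.9% TTTGAA, 37.4% CCAAT and 13.6% TATAAA. The median GC content was 60.3% for the higher, 61.3% for the lower and 60% for all measured genes. Some genes have several promoters in these counts, matches of different motifs may overlap, and a TATAAA can overlap its own reverse complement. The shares are a description, with no test.

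Genes of other cell types a muscle culture can hold were counted beside these groups. Of 8 smooth muscle genes, 7 were higher on all 9 and 0 lower, and the list mean was 8.59 to 8.85 on the muscle-high and 7.42 to 7.65 on the dividing arrays. Des and Synpo2 of that list also stand in the skeletal muscle lists. Mylk, myosin light chain kinase, Smtn, smoothelin, and Tagln, transgelin, differed by 1.97, 1.76 and 1.5. All 8 genes of the list had a higher mean on the muscle-high arrays. Myocd, a regulator of smooth muscle named outside the named-gene rule, was detected on 6 muscle-high and 6 dividing arrays. Its means were 4.83 on the muscle-high and 4.73 on the dividing arrays, near background, and nothing is read from it. Of 10 fibroblast genes, 3 (30%) were higher and 0 lower, against 10.2% and 9.95% of all genes. The 3 were Dcn, decorin, by 2.2, Col1a1, a collagen, by 1.42, and Dpt, dermatopontin. Dpt was detected on no dividing array and was at least 1.55-fold higher. Fn1, fibronectin, had a mean difference of -1.19 with classes that overlapped. The fibroblast list mean was 7.11 to 7.37 on the muscle-high and 6.62 to 7.2 on the dividing arrays. Of the 10 genes, 7 had a higher mean on the muscle-high arrays. Pdgfra, a receptor named outside the named-gene rule, averaged 4.95 on the muscle-high and 5.26 on the dividing arrays. Of 5 endothelial genes 1 (20%) was higher on all 9, against 10.2% of all genes. It was Cldn5, a claudin, detected on 6 muscle-high arrays. The endothelial list mean was 5.16 to 5.44 on the muscle-high and 4.49 to 5.2 on the dividing arrays. Vwf, von Willebrand factor, was detected on 9 muscle-high and 7 dividing arrays and had a mean difference of 1.18 with classes that overlapped. Pecam1 and Kdr were each detected on 2 muscle-high and 3 dividing arrays, and Tek on 7 and 9. Of 3 adipocyte, 3 macrophage and 2 Schwann genes, 0 were higher or lower on all 9. Of the macrophage genes, Lyz2 was detected on 1 muscle-high and 2 dividing arrays, Csf1r on 6 and 4, and Cd14 on 2 and 8, with a mean difference of -0.72. The macrophage list mean was 4.44 to 4.79 on the muscle-high and 4.55 to 5.04 on the dividing arrays. The part of other cell types in the class difference was not tested.

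Ribosome, cytoskeleton, lipid and matrix genes differed by less. Of 18 cytosolic ribosome genes, 6 (33.3%) were lower on all 9 and 0 higher, against 9.95% and 10.2% of all genes. The median was -0.34. Rplp0, a ribosomal stalk protein, differed by -0.78, and Rps6, Rps16 and Rps3 by -0.65, -0.63 and -0.54. Of 18 cytoskeleton genes, 7 (38.9%) were lower and 2 (11.1%) higher. The share of higher genes there lies near the 10.2% of all genes. The 2 cofilins, which sever actin filaments, ran in opposite directions: Cfl2, the muscle form, averaged 9.17 ± 0.14 and 7.63 ± 0.24, and Cfl1, the form of most cells, 7.57 ± 0.15 and 9.15 ± 0.29 on the muscle-high and the dividing arrays (SD, n = 9 each). Myl12a, a myosin regulatory light chain, was the other gene of that list that was higher, by 1.15, and Lmnb1, lamin B1, differed by -2.23. The 2 probes of Lmnb1 differed by -2.23 and -0.51. The next 3 lists held shares of higher and lower genes not far from the 10.2% and 9.95% of all genes, and no more is read from their counts. Of 12 cholesterol synthesis genes, 2 (16.7%) were higher, Dhcr7 by 1.33 and Cyp51 by 1.27, 10 had classes that overlapped, and the median was 0.24. Of 19 matrix and integrin genes with a median of -0.07, 3 (15.8%) were higher, led by Loxl1, a collagen crosslinker, with 1.42, and 1, the laminin receptor subunit Itga6, was lower by -1.21. Of 15 Igf axis and imprinted genes, 2 (13.3%) were higher, among them Igfbp6 by 1.37, while Mest, an imprinted gene, had a mean difference of -2.16 with classes that overlapped. Of 5 genes of GATA factors and their partner Zfpm2, 1 (20%) was lower, against 9.95% of all genes. It was Gata2, by -1.31, with 8.22 ± 0.25 on the muscle-high and 9.54 ± 0.39 on the dividing arrays (SD, n = 9 each).

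**Figure D3:**
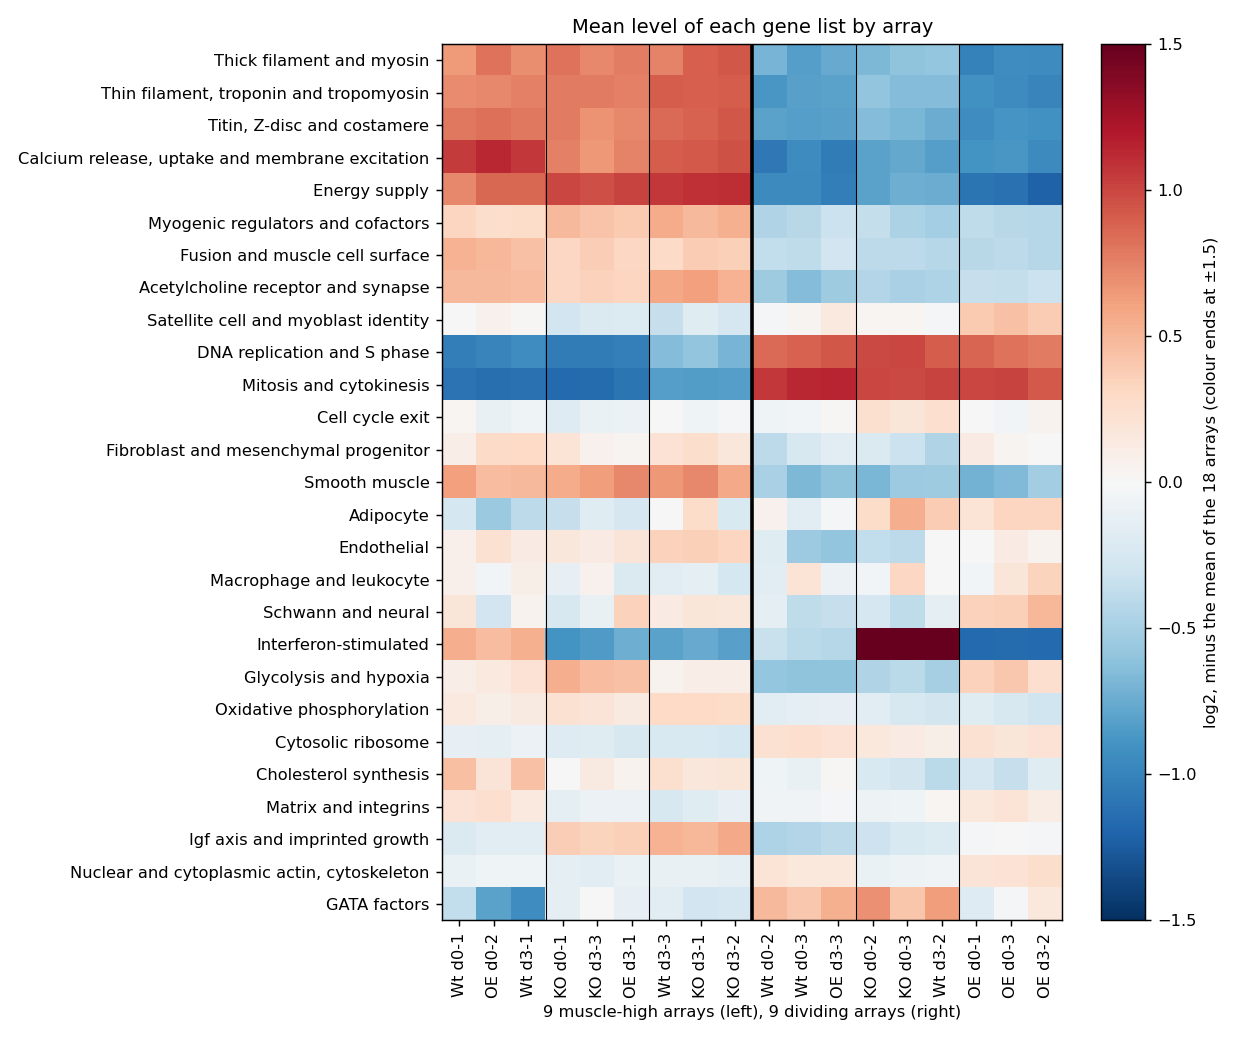
Mean log2 level of each of 27 gene lists on each array, minus the mean of the 18 arrays, with muscle-high arrays left of the thick line and dividing arrays right of it. Columns are named by label, day (d) and replicate and grouped in sets of 3 closest arrays, and the interferon row runs past the colour scale on 3 dividing arrays.

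The muscle-high arrays were not all alike. On correlations over all genes they fell into 3 sets of 3 mutually closest arrays, with correlations of 0.989 to 0.995 within sets. Set A held OE day 0 replicate 2, Wt day 0 replicate 1 and Wt day 3 replicate 1, set B held KO day 3 replicate 3, KO day 0 replicate 1 and OE day 3 replicate 1, and set C held KO day 3 replicates 1 and 2 and Wt day 3 replicate 3. The dividing arrays fell into sets D (OE day 3 replicate 3, Wt day 0 replicates 2 and 3), E (KO day 0 replicates 2 and 3, Wt day 3 replicate 2) and F (OE day 3 replicate 2, OE day 0 replicates 1 and 3). These sets come from the data and are not the study's groups, so their values are given with no test. Ckm was nearly level over the muscle-high sets, with set means of 11.15 in A, 11.07 in B and 11.3 in C.

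Of the 1216 genes higher on all 9, the median range over the muscle-high arrays was 0.64, and 18 genes had a range above 2. The 10 with the widest range were Ky, Serping1, Vgll2, Tnfrsf13c, Cpeb2, Crct1, Mss51, Klhl3, Cldn5 and Myh4. All except Serping1 were highest on average in set C and lowest in set A among the muscle-high sets. Ky averaged 8.29, 9.7 and 10.79 in sets A, B and C, and at most 7.06 in a dividing set. Vgll2, a partner of TEAD factors in muscle, averaged 9.08, 11.09 and 11.42, against 8.61, 8.82 and 8.09 in sets D, E and F, so that set A lay closer to the dividing arrays than to the other muscle-high arrays. Serping1, the C1 inhibitor of complement, ran the other way, with 9.3, 7.57 and 6.59 in sets A, B and C. Cdkn1c followed the same order as Ky, with 10.76, 12.44 and 13.42 in A, B and C, against 10.16, 10.96 and 9.51 in D, E and F. Pvalb, the gene with the largest class difference, was highest in set A, with 11.19, 9.78 and 10.45.

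Interferon-stimulated genes, which answer viral infection, varied among the sets of both classes. All 25 had classes that overlapped. Their list mean was 7.13 to 7.21 in set A and 5.77 to 5.93 on the other muscle-high arrays, and it was 9.28 to 9.34 in set E, 6.24 to 6.34 in D and 5.5 to 5.51 in F. Oasl2, an antiviral protein, averaged 7.93, 4.69 and 4.81 in sets A, B and C and 6.77, 10.92 and 4.89 in D, E and F. Ifit3 averaged 9.16, 5.79 and 5.13 in sets A, B and C, against 7.08, 11.92 and 5.69 in D, E and F. Ccl5, among the 12 lowest genes above, averaged 5.05, 4.48 and 4.87 in the muscle-high sets and 8.93, 10.21 and 5.54 in D, E and F, so its class difference moved with these sets.

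**Figure D4:**
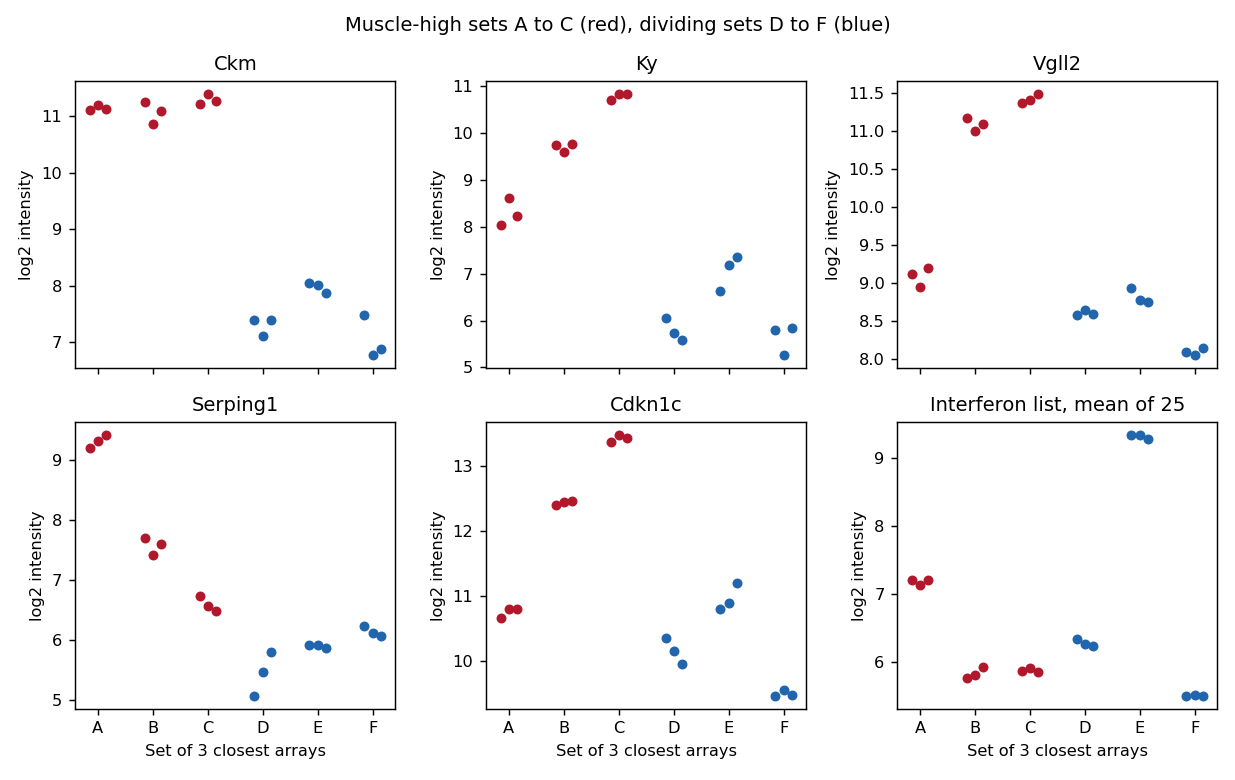
Log2 intensity of 5 genes and mean of the interferon list on each array, by set of 3 closest arrays, with 1 point per array. Ckm is level over the muscle-high sets A to C (red), while Ky and Cdkn1c are highest in C, Serping1 is highest in A, and the interferon mean is highest in set E of the dividing arrays (blue).

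What the labels carried beyond the class was tested, since the labels did not choose the arrays. A limma model with the class, the day label and the infection label was fitted to all 18 arrays, with Benjamini-Hochberg adjustment over 11921 genes. The model treats the arrays as independent and leaves out the sets of 3 closest arrays, which cut across the labels. Where arrays of a set vary together, the standard errors, the p-values and the count met by chance are not exact. For day 3 against day 0, 0 genes (0%) had an adjusted p below 0.05, and 768 had an unadjusted p below 0.05, where 596.1 would be met by chance. For KO against Wt, 0 genes (0%) passed and 1350 had an unadjusted p below 0.05, and 20 genes passed without Wt day 3 replicate 3. For OE against Wt, 0 genes (0%) passed and 926 were below 0.05 unadjusted, while a fit to the dividing arrays alone gave 216 genes. In that fit, set F held only OE arrays and no Wt array, so label and set can largely not be told apart. Without Wt day 3 replicate 1, 6 genes passed for day 3 against day 0. The smallest adjusted p values of these comparisons were 0.77, 0.373 and 0.636. The median standard error of a gene's difference was 0.12 on the log2 scale for day and 0.14 for KO and OE. The class by day interaction asks whether the class difference itself differs between arrays labelled day 3 and day 0, and 0 genes (0%) passed, with 322 below 0.05 unadjusted. Ckm made the class that stands in this model, so no value of it is given there. Top2a differed by 0.14 ± 0.14 (SE) between day 3 and day 0 (limma adjusted p = 0.863). Because Top2a splits the arrays exactly as Ckm does, the class term holds most of its variation, and nothing is read from this value. Gata4 differed by -0.34 ± 0.17 in KO against Wt and by -0.36 ± 0.17 in OE against Wt (SE), with limma adjusted p of 0.436 and 0.636. A comparison that misses the threshold does not show that the labels had no effect.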

How the data were processed

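Per the file headers, the authors deposited mean bead intensity on a linear scale, without normalisation, with a detection p-value, for 45281 probes on 18 arrays. A table of the authors' processed intensity for the same arrays was also deposited, and the sources used here do not give its normalisation. Groups and replicate numbers come from the sample titles. Intensities were background-corrected and quantile-normalised with neqc of limma 3.58.1 in R 4.3.3 (offset 16), on the log2 scale. The 22365 probes detected (p below 0.05) on 3 or more arrays were kept. The platform annotation gave gene symbols, which were brought up to date by Entrez identifier. Of all probes, 34885 had 1 symbol, 18 several and 10378 none, and 34807 of the first kind matched by identifier. The brightest of the 19031 kept probes with 1 symbol stood for each of 11921 genes.

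Arrays were split by Ckm, and a gene counts as higher or lower on all 9 where the classes do not overlap. That contrast has no test. Labels were tested with Fisher's exact test and limma with Benjamini-Hochberg adjustment at 0.05. Named genes are Ckm, Top2a and Gata4, the 12 largest differences in each direction, up to 4 members of each list and those against their list, the 10 widest ranges, and the 6 genes closest to and most opposed to Ckm. Other genes are named for background, as markers, or after their values were seen. The arrays, gene lists and rules were chosen with earlier results of these data known. Alternatives covered background correction, normalisation, the authors' processed intensities, detection filters, probe choice, a minimum difference or gap, the gene that splits the arrays, array weights, a replicate block, fits without the class or within it, and leaving out each array. Precision is limited by the number of arrays.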

Additional observations from a re-analysis of the deposited data

Results flagged for a closer look

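In 58 sets of 9 values (27 list means and the 2 markers, in each class), 1 array stood far from the others of its class. In the list of fusion and muscle cell surface genes, the dividing array OE day 3 replicate 3 had a list mean of 8.35, the next array was at 8.27 and the lowest at 8.21, so that the gap made up 0.556 of the range. Chance flags about 1 in 20 groups.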

How the results depend on the processing

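The counts of genes higher and lower on all 9 (1216 and 1186) stayed within 1.5 times (1062 to 1303 and 1062 to 1187). This held when the background correction, normalisation or detection filter was changed, and with the authors' processed intensities or the mean of all probes. A split by Top2a gave the same classes, so its counts had to be the same. A minimum difference of 1 left 711 and 662 genes and a gap of at least 0.5 between the classes 470 and 411, as stricter rules must. The arrays labelled day 3 alone gave 1841 and 1976 genes and those labelled day 0 alone 1892 and 1839, alternatives added after the data were seen that compare fewer arrays. Leaving out each array in turn gave 1219 to 1287 higher and 1199 to 1277 lower genes, counts that fewer arrays can only keep or raise. The Ckm difference by day was then 0.952 to 1.57. Fisher's exact test gave p-values of 0.153 to 0.347 for day and 0.404 to 0.835 for infection against class. The limma fits gave 0 to 6 genes for day 3 against day 0 (6 without Wt day 3 replicate 1). For KO against Wt they gave 0 to 20 (20 without Wt day 3 replicate 3), and for OE against Wt and the interaction 0. Within the dividing arrays alone, OE against Wt gave 216 genes. Set F there holds only OE arrays, so label and set can largely not be told apart, and the cause was not tested. Kif23 turned to -1.51 with the mean of all its probes. With a replicate block, the 4 limma comparisons gave 0 genes each, with 523, 1147, 724 and 186 unadjusted. Residuals of arrays with the same number had a median correlation of -0.11, against -0.05 for arrays with different numbers. The model behind these residuals does not include the sets of 3 closest arrays, so whether the numbers pair the arrays is not settled. Dim probes near background have differences that are too small.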

Other observations

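Kept probes with no single gene symbol were outside the gene counts. Of 3334 such probes, 245 (7.3%) were higher and 225 (6.7%) lower on every muscle-high array than on any dividing array, with differences of up to 3.61 and down to -3.42. The shares over all genes were 10.2% and 9.95%. Of the genes with more than 1 probe, 65 of 570 higher and 58 of 568 lower ones had a probe that differed in the other direction. Probes of a gene could also differ in size where this is not stated, as for Smtn (0.52 to 1.76) and Rplp0 (-0.78 to -0.18). For some bright genes another probe differed by more than the brightest, as for Actc1 (1.46 to 2.27), Chrng (1.18 to 1.62) and Ccnd1 (-2.97 to -2.27). Whether differences of the brightest probes are too small was not tested.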
